A study of Homo sapiens with 23 samples.

Results

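BRD2 occupancy was described at the genomic regions that carried acetylated lysine 12 of histone H4 (H4K12ac) in NCI-H23 cells, an established line from a human non-small cell lung cancer. A region was taken where overlapping peaks of both H4K12ac replicate libraries merged into 1 interval. There were 44300 such shared regions, 28.9% of the 153136 intervals that the 2 H4K12ac lists formed when merged, and they covered 37.8 Mb. The chromatin immunoprecipitation sequencing (ChIP-seq) series holds 23 samples, of which 22 libraries gave peak lists with 2889028 peaks in all. The 4 libraries of BRD2 and H4K12ac define the comparison, and the peak lists of the other marks serve to sort the regions. All libraries came from the same cell line, with no genetic change named in the labels, and from chromatin fixed with formaldehyde. BRD2 and H4K12ac were each immunoprecipitated with a rabbit polyclonal antibody, per the labels, and H4K5acK8ac with a mouse monoclonal antibody. The labels' treatment text names JQ1, an inhibitor of BET bromodomains, and DMSO, but ties neither to a library, so no treatment was compared. Nor do the labels say whether replicates 1 and 2 were separate cultures, so their spread may be technical.

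BRD2 belongs to the BET family of chromatin proteins, whose paired bromodomains bind acetylated lysines, mainly on the tails of histones H3 and H4, and which help RNA polymerase II transcribe through chromatin. Acetylation of the H4 tail at lysines 5, 8 and 12 accompanies active promoters and enhancers, and H4K5acK8ac is the tail acetylated at both lysine 5 and lysine 8. Trimethylation of lysine 4 on histone H3 (H3K4me3) marks promoters, whereas monomethylation of the same residue (H3K4me1) marks enhancers and the flanks of promoters.

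The H4K12ac lists held 107745 peaks in replicate 1 and 102158 in replicate 2, and the BRD2 lists 56830 and 45730. Most H4K12ac peaks were short, with median widths of 288 and 275 bp, and 46.0% of the peaks of replicate 1 and 50.4% of those of replicate 2 fell in shared regions. The shared regions had a median width of 637 bp, with the middle 50% between 426 and 1034 bp, and ranged from 194 to 24058 bp. BRD2 replicate 1 had the longer but weaker list: 64.7% of its peaks had a q above 0.05, against 28.1% in replicate 2, and 4771 against 12491 peaks reached a −log10 q of at least 5. Sequencing depth is unknown for all libraries, because the lists give no read numbers.

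Of the 44300 shared H4K12ac regions, 14751 overlapped a BRD2 peak of replicate 1, 33.3%, and 21349 overlapped one of replicate 2, 48.2%. The mean share was 40.7% ± 10.5 (SD, n = 2 libraries). It was 20.3% over all peaks of H4K12ac replicate 2 (without replicate 1) and 19.3% over all those of replicate 1 (without replicate 2). It was 18.7% when BRD2 peaks had to reach a −log10 q of at least 5, and 79.5% when H4K12ac peaks had to. Both BRD2 lists reached 13399 regions, 30.2%, at least 1 list reached 22701 regions, 51.2%, and neither list reached 21599 regions, 48.8%. Regions met by replicate 2 alone numbered 7950 and those met by replicate 1 alone 1352, so most regions met by replicate 1 were also met by replicate 2. Seen from BRD2, 33.6% of all replicate 1 peaks and 57.4% of replicate 2 peaks lay in shared H4K12ac regions. Among BRD2 peaks with a −log10 q of at least 5 these shares were 98.3% and 97.2%. Of the 14419 BRD2 regions called in both BRD2 lists, 13548 overlapped H4K12ac peaks of both replicates, 94.0%, and 451 overlapped none, 3.13%. This overlap was not particular to H4K12ac. The same BRD2 regions met H4K5acK8ac in both of its lists at 96.8% and H4K5ac at 96.5%, against 84.4% for H3K4me3 and 71.0% for H4K8ac. The 451 regions without H4K12ac were weak BRD2 peaks, with a median fold enrichment of 2.85 in replicate 1 and 3.28 in replicate 2. The medians were 4.00 and 7.66 at the regions with H4K12ac in both lists. Fold enrichment here and below is the authors' own value for a peak over its local background, and it is used to describe peaks within a list.

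No test of the differences is given: they are taken within each of 2 BRD2 libraries, for which an exact sign-flip test cannot reach a two-sided p under 0.5, and regions of the same library are not replicates. Each share is therefore given for both BRD2 libraries, and a difference is read against the spread between them.

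BRD2 was found at few narrow H4K12ac regions and at almost all wide ones. Among the 15348 regions of 200 to below 500 bp, 9.90% overlapped BRD2 in replicate 1 and 19.0% in replicate 2. The shares were 29.1% and 48.1% for the 17250 regions of 500 to below 1000 bp, and 64.7% and 83.7% for the 9072 regions of 1000 to below 2000 bp. They reached 89.1% and 97.1% in the 2354 regions of 2000 to below 4000 bp. Of the 256 regions of at least 4000 bp, 96.9% and 98.8% overlapped BRD2. The share was higher in each wider class in both libraries. The 20 regions under 200 bp had a BRD2 peak in 2 cases in each library. Regions of at least 2000 bp exceeded regions under 500 bp by 79.9 percentage points in replicate 1 and 78.3 in replicate 2, a mean of 79.1 ± 1.19 (SD, n = 2). That gap was many times the spread between the libraries. At stricter thresholds the gap was smaller and the spread larger. It was 61.3 ± 21.8 with BRD2 peaks at a −log10 q of at least 5, and 39.7 ± 13.6 with H4K12ac peaks at that threshold.

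**Figure D1:**
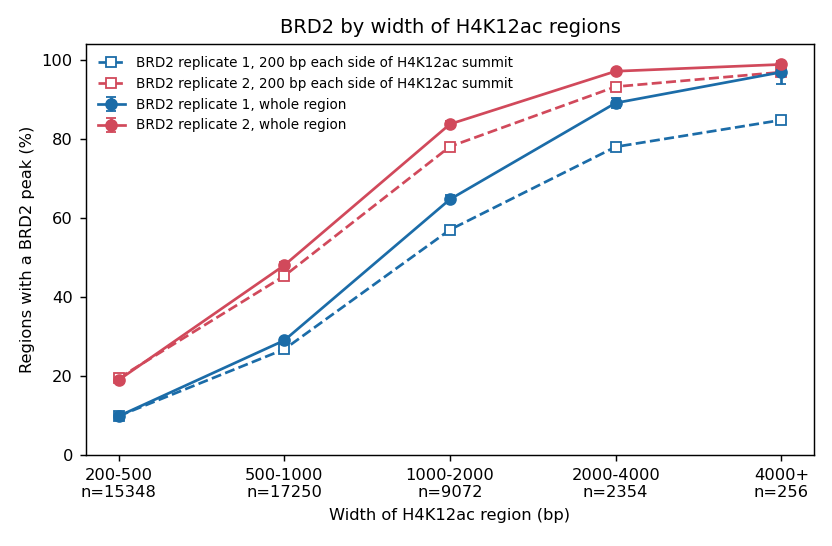
BRD2 occupancy of shared H4K12ac regions by region width in bp, for BRD2 replicates 1 and 2, as the percent of regions with a BRD2 peak; error bars are 95% Wilson intervals. The share is higher in each wider class, from 9.90% and 19.0% at 200 to below 500 bp to 96.9% and 98.8% at 4000 bp or more.

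A wide interval offers more bases to overlap, so the same count was made in a fixed window of 200 bp on each side of the stronger H4K12ac summit, the position of highest signal in a peak. In that window the BRD2 share still went from 9.92% and 19.5% in regions of 200 to below 500 bp to 57.0% and 78.1% in those of 1000 to below 2000 bp, and to 84.8% and 96.9% at 4000 bp or more. BRD2 density was also higher in wide regions. BRD2 summits per kb of H4K12ac region were 0.235 in the 200 to below 500 bp class and 0.680 in the widest class for replicate 1, and 0.431 and 0.696 for replicate 2. In replicate 2 the highest density, 0.776 summits per kb, was at 1000 to below 2000 bp, so beyond that width the density did not climb further. BRD2 peaks covered 5.59% of the bases of regions of 200 to below 500 bp and 32.4% of those of at least 4000 bp in replicate 1, and 12.8% and 60.0% in replicate 2. An occupied region of 200 to below 500 bp held 1.01 BRD2 peaks on average in replicate 1 and 1.02 in replicate 2, and one of at least 4000 bp held 3.90 and 3.94.

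Width moved together with H4K12ac strength, and both tracked BRD2. When the shared regions were ranked by the lower of their −log10 q values in the 2 H4K12ac lists and divided into 5 equal groups (quintiles), BRD2 replicate 1 met 6.02% of the weakest quintile and 87.2% of the strongest. Replicate 2 met 11.3% and 97.4%. Within the strongest quintile even regions of 200 to below 500 bp were mostly occupied, at 67.8% and 88.2%, and those of 2000 to below 4000 bp at 94.8% and 99.4%. In the weakest quintile the share was 5.03% and 8.94% at 200 to below 500 bp and 13.3% and 31.4% at 1000 to below 2000 bp. Within a quintile the share was thus higher in wider regions, and within a width class it was higher in stronger regions. These shares count any overlap with the whole region, so wider regions offered more bases. The fixed window was not applied within quintiles. Nor was strength equal within a quintile: the strongest ran from a −log10 q of 9.10 to 99.1. Both measures come from the same H4K12ac peaks and rest on the unknown depth of those libraries.

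H4K12ac regions without the doubly acetylated H4 tail had almost no BRD2, whereas regions with it were occupied only in part. Of the 35695 H4K12ac regions that also carried H4K5acK8ac in both of its lists, 40.5% overlapped BRD2 in replicate 1 and 59.2% in replicate 2. BRD2 was in neither list at 13463 of them, 37.7%. Of the 5472 regions with H4K5acK8ac in neither list, 3.34% and 1.61% did so, and 9 regions, 0.164%, were met by both BRD2 lists. The 3133 regions with H4K5acK8ac in 1 list resembled the latter, at 3.38% and 3.67%. The difference between presence and absence was 47.4 ± 14.5 percentage points (SD, n = 2). Regions without H4K5acK8ac were narrower, with a median of 387 bp against 737 bp. Within the class of 200 to below 500 bp the difference was 11.4 percentage points in replicate 1 and 28.7 in replicate 2, and at 500 to below 1000 bp it was 41.0 ± 17.5. Regions were further divided by width class and strength quintile together, using each division with at least 20 regions on either side. The share was higher with H4K5acK8ac in all 9 such divisions in both BRD2 libraries. The mean difference over these divisions, weighted by their number of regions, was 24.1 percentage points, with 13.1 in replicate 1 and 35.0 in replicate 2. Over all regions with BRD2 peaks at a −log10 q of at least 5 it was 23.2, with 12.7 and 33.8.

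H3K4me3, the promoter mark, went with a difference of about the same size. The 23010 H4K12ac regions with H3K4me3 in both lists overlapped a replicate 1 BRD2 peak in 53.4% of cases and a replicate 2 peak in 73.7%. The 20491 regions with H3K4me3 in neither list did so in 11.1% and 19.7%, a difference of 48.2 ± 8.23 percentage points (SD, n = 2). The gap was 27.7 ± 14.2 at 200 to below 500 bp, 42.6 ± 9.89 at 500 to below 1000 bp and 36.2 ± 6.79 at 1000 to below 2000 bp. It shrank to 13.2 ± 8.27 at 2000 to below 4000 bp, where 73.5% and 91.1% of the regions without H3K4me3 were occupied. At 4000 bp or more it was 2.74 ± 5.30, less than the spread between the BRD2 libraries. Across divisions by width and strength the share was higher with H3K4me3 in 19 of 19 for replicate 1 and 18 of 19 for replicate 2. The mean difference over them, weighted by their number of regions, was 21.9 percentage points, with 17.9 in replicate 1 and 26.0 in replicate 2. Over all regions the difference was 31.1 (18.0 and 44.3) with BRD2 peaks, and 30.3 (36.2 and 24.5) with H4K12ac peaks, at a −log10 q of at least 5.

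H3K4me1, by contrast, went with a difference near 0 over all regions and a negative one at a given width. With H3K4me1 in both lists (29514 regions) BRD2 met 34.0% and 49.5%, and with it in neither list (8419 regions) 35.2% and 48.1%. The difference, 0.109 ± 1.79 percentage points (SD, n = 2), was smaller than the spread between libraries and had opposite signs in them, −1.16 and 1.37. It was 14.6 over the peaks of H4K12ac replicate 2 (without replicate 1) and 14.1 over those of replicate 1 (without replicate 2). In the fixed window it was −23.0. There H3K4me1, too, was called within the window, so the regions counted as present or absent were not the same ones. Regions with H3K4me1 were wider, however, with a median of 757 bp against 455 bp. Within width classes BRD2 was found less often where H3K4me1 was present: the difference was −15.1 ± 2.77 at 200 to below 500 bp, −28.7 ± 2.33 at 500 to below 1000 bp, −17.1 ± 6.61 at 1000 to below 2000 bp and −4.62 ± 2.26 at 2000 to below 4000 bp. It was negative in 15 of 15 divisions by width and strength in both BRD2 libraries. Where H4K5acK8ac and H3K4me3 were both present, it was negative in 12 of 13 divisions in replicate 1 and 13 of 13 in replicate 2. Regions with H4K5acK8ac but no H3K4me3 did not show this order. At 500 to below 1000 bp their shares were 11.7% and 28.3% with H3K4me1, against 9.76% and 17.7% without it. At 200 to below 500 bp they were 5.64% and 12.9% against 5.70% and 10.1%.

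On the 22 autosomes taken one at a time, the H4K5acK8ac and the H3K4me3 differences were positive on all 22 in both BRD2 libraries. The H3K4me1 difference over all widths was positive on 8 autosomes in replicate 1 and on 11 in replicate 2.

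Sorting regions by the 3 marks together placed BRD2 mainly where H4K5acK8ac and H3K4me3 met. The highest share was at the 4594 regions with H4K5acK8ac and H3K4me3 but no H3K4me1, a promoter-like combination, where 60.6% overlapped BRD2 in replicate 1 and 85.1% in replicate 2. Regions with all 3 marks, 14167 in number, had 55.8% and 74.8%. At the 11118 regions with H4K5acK8ac and H3K4me1 but no H3K4me3, an enhancer-like combination, BRD2 met 16.8% and 32.4%. H4K5acK8ac alone, at 479 regions, had 7.72% (95% Wilson interval 5.66 to 10.5) and 13.2% (10.4 to 16.5). Such intervals treat regions as independent and cover counting error only. Where H4K5acK8ac was absent, H3K4me3 did not go with BRD2: of 313 regions with H3K4me3 and H3K4me1 but no H4K5acK8ac, 5 overlapped BRD2 in replicate 1 (1.60%, interval 0.684 to 3.68) and 8 in replicate 2 (2.56%, interval 1.30 to 4.96). In that combination 40.6% of regions carried H3K27me3, a Polycomb mark of repressed genes, in both lists, and 27.5% carried H4K5ac. The 1351 regions with H3K4me1 alone had 2.52% and 1.04%, and the 2763 regions with none of the 3 marks had 4.02% and 1.74%. A further 9512 regions had at least 1 of the marks in a single list and stood at 21.2% and 32.6%. Only 3 regions had H3K4me3 without the other marks, and none of them overlapped BRD2.

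**Figure D2:**
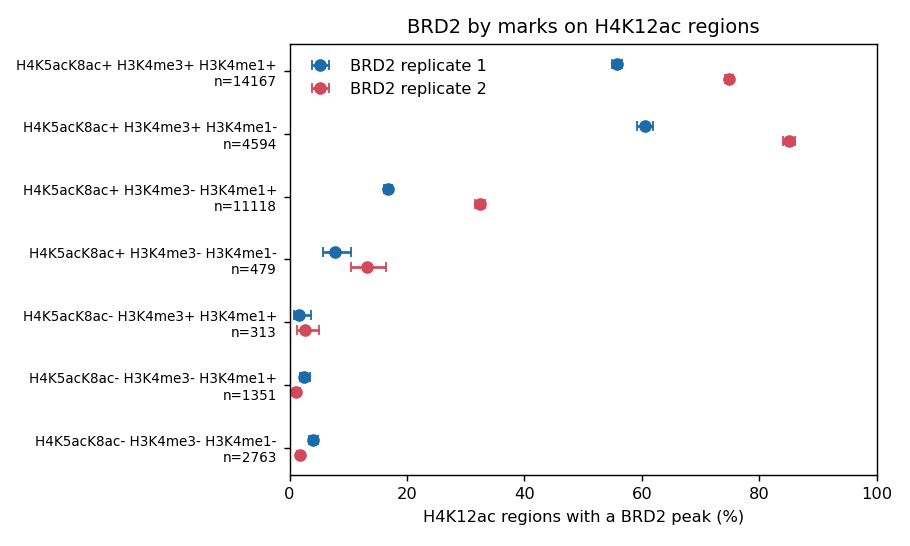
BRD2 occupancy of shared H4K12ac regions by presence (+, both lists) or absence (−, neither list) of H4K5acK8ac, H3K4me3 and H3K4me1, as the percent of regions with a BRD2 peak in each BRD2 replicate; error bars are 95% Wilson intervals. Combinations without H4K5acK8ac stay at 4.02% or lower, and those with H4K5acK8ac and H3K4me3 lie between 55.8% and 85.1%.

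The promoter-like regions without H3K4me1 were narrower than those with it, at a median of 555 bp against 1037 bp. In the classes from 200 to below 1000 bp the gap was larger than the overall shares show. At 200 to below 500 bp BRD2 met 41.7% and 72.8% of regions with H4K5acK8ac and H3K4me3 alone, against 9.04% and 26.3% of those that also had H3K4me1. At 500 to below 1000 bp the shares were 69.6% and 92.2% against 37.1% and 64.0%. At 1000 to below 2000 bp they were 87.4% and 98.5% against 74.0% and 91.2%, a smaller gap than over all widths in replicate 2 but not in replicate 1. At 2000 to below 4000 bp they were 95.1% and 100% against 92.5% and 98.4%, a smaller gap in both libraries. The enhancer-like combination was below both at each width up to that class. It went from 5.64% and 12.9% at 200 to below 500 bp through 36.4% and 64.1% at 1000 to below 2000 bp to 73.7% and 91.3% at 2000 to below 4000 bp. Wider regions thus had higher shares in each of these combinations, and among the widest regions, 4000 bp or more, the enhancer-like ones were occupied in 92.5% and 100% of 40 cases. H4K8ac, another acetylation of the same tail, did not follow BRD2 in this contrast. It was called in both lists at 29.8% of the regions with H4K5acK8ac and H3K4me3 alone and at 69.6% of those with all 3 marks. At matched width that gap was smaller. The shares were 11.4% against 24.1% at 200 to below 500 bp and 34.8% against 55.8% at 500 to below 1000 bp. At 1000 to below 2000 bp they were 68.5% against 86.0%, and at 2000 to below 4000 bp 97.6% against 97.8%.

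**Figure D3:**
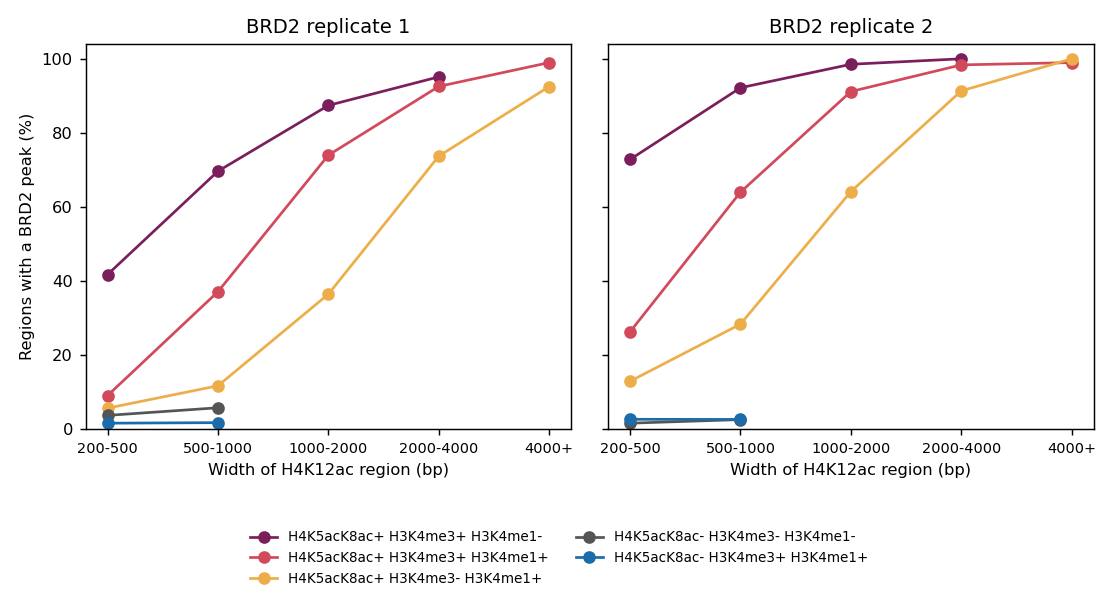
BRD2 occupancy in percent against width class in bp for selected combinations of marks, with BRD2 replicate 1 on the left and replicate 2 on the right. Each point is 1 width class of 1 combination. H4K5acK8ac alone and H3K4me1 alone are among the combinations not drawn. At 200 to below 500 bp the combination of H4K5acK8ac and H3K4me3 without H3K4me1 stands at 41.7% and 72.8%, above all others plotted. At 2000 to below 4000 bp the combinations with H3K4me3 stand at 92.5% or higher and the one without it at 73.7% and 91.3%.

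BRD2 peaks were also stronger in the combinations that held more of them. The median fold enrichment of the BRD2 peaks was 3.97 in replicate 1 and 6.47 in replicate 2 at regions with H4K5acK8ac and H3K4me3 alone, and 3.80 and 5.81 where H3K4me1 was added. In the enhancer-like combination it was 3.18 and 3.92, and at regions with none of the 3 marks 2.88 and 3.21. Those last values were near the medians of BRD2 peaks outside shared H4K12ac regions, 2.88 and 3.28. At regions with H4K5acK8ac in neither list, 1 of 184 BRD2 peaks of replicate 1 had a −log10 q of at least 5, and 0 of 88 in replicate 2, which allows a share of up to 3.41%.

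Other marks sorted the H4K12ac regions as follows. H3K27ac, an acetylation of active promoters and enhancers, gave 42.8% and 61.5% where present and 4.01% and 4.72% where absent. H4K5ac gave 38.6% and 56.2% against 2.93% and 1.84%. For H4K8ac the shares were 46.0% and 61.6% against 6.58% and 15.8%. H3K27me3 went the other way: 11.1% and 18.7% of the 1422 regions that carried it had BRD2, against 34.4% and 49.6% of those without. H3K36me3, a mark of transcribed gene bodies, also went with fewer occupied regions, at 25.3% and 33.7% against 34.2% and 50.0%. H3K9me3, a heterochromatin mark, showed hardly any difference, at 33.5% and 46.3% against 33.4% and 48.4%.

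The 13399 regions occupied in both lists had a median width of 1170 bp, against 470 bp in the 21599 regions free of BRD2. The median H4K12ac fold enrichment was 6.09 and 6.36 in the H4K12ac lists at occupied regions and 3.10 and 3.28 at free ones. H4K5acK8ac was present at 99.8% of occupied and 62.3% of free regions, H3K4me3 at 88.1% and 25.8%, H3K27ac at 98.3% and 54.4%, and H3K4me1 at 68.1% and 64.8%. Free regions were rarely wide: 0.250% of them reached 2000 bp, against 17.4% of the occupied ones. Of the 2610 regions of at least 2000 bp, 2328 were occupied in both lists and 54 in neither. H3K36me3 was present at 32 of the 54 free wide regions and at 573 of the 2328 occupied ones, and H3K4me3 at 24 and 1966. H3K4me1 (54 and 2232 regions) and H3K27ac (54 and 2325) were present at nearly all of both.

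By median gap, free promoter-like regions lay nearest to BRD2 regions among the combinations compared, but most of them were over 1000 bp away. The median gap from a free region to the nearest BRD2 region called in both lists was 23544 bp, and 11.1% lay within 1000 bp. For free regions with H4K5acK8ac and H3K4me3 but no H3K4me1 the median gap was 5275 bp, with 39.7% within 1000 bp. It was 9578 bp for those with all 3 marks, 18982 bp for the enhancer-like ones and 80583 bp for those with none of the 3.

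Within H3K4me3 domains, narrow H4K12ac regions were occupied more often near the domain's centre, while regions of 1000 to below 2000 bp showed little difference by place. There were 20506 H3K4me3 regions called in both lists, with a median width of 1905 bp, and 15178 of them held the centre of at least 1 shared H4K12ac region. A single H4K12ac region was centred in 9740 domains, and 57.2% of these regions were met by both BRD2 lists. Of the 5438 domains with several H4K12ac regions, 1410, 25.9%, held an occupied region (both BRD2 lists) beside a free one (neither list). The distance of an H4K12ac region's centre from the domain's midpoint, as a fraction of the domain's half-width, had a median of 0.348 for occupied regions and 0.551 for free ones. At 1000 to below 2000 bp these medians were 0.385 and 0.386, and at 200 to below 500 bp 0.258 and 0.567. From the innermost to the outermost of 5 equal steps of that distance the BRD2 share went from 62.1% and 82.5% to 37.4% and 57.7%. Among H4K12ac regions of 200 to below 500 bp it went from 33.0% and 62.0% to 5.66% and 19.5%, a decline at each step. At 1000 to below 2000 bp it was 77.0% and 92.3% at the innermost step, highest at the middle step with 79.4% and 94.2%, and 69.8% and 89.1% at the outermost.

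Place in the domain and H3K4me1 moved together with BRD2, and the values at matched place were as follows. Among H4K12ac regions under 1000 bp with H4K5acK8ac and H3K4me3, the innermost step had BRD2 at 60.1% and 86.3% without H3K4me1 and at 37.0% and 61.4% with it. At the middle step the shares were 48.8% and 80.9% against 30.1% and 55.7%. In the outermost step, with 37 regions without H3K4me1, they were 21.6% and 45.9% against 26.2% and 50.2%, so the order was the opposite there.

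**Figure D4:**
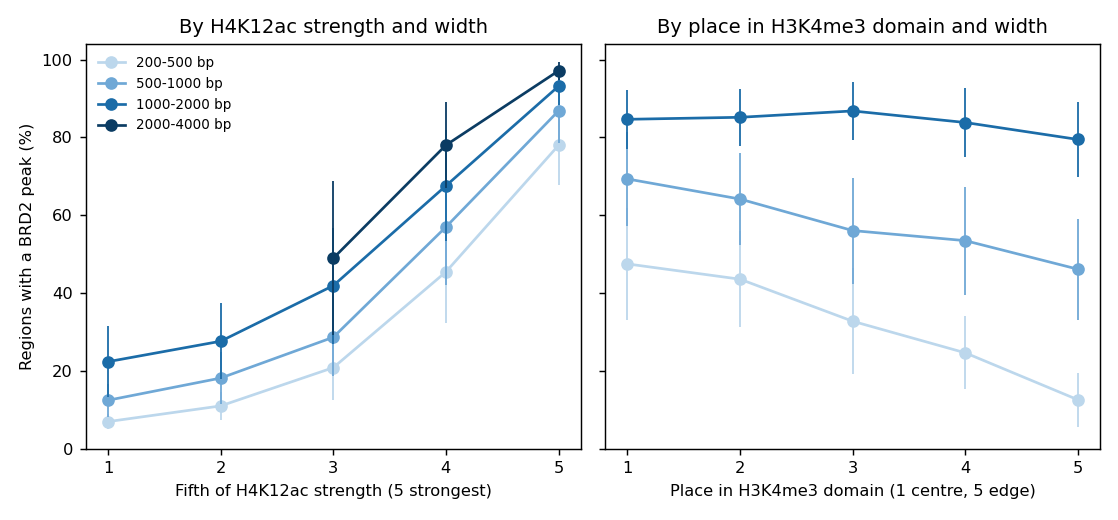
BRD2 occupancy of shared H4K12ac regions in percent by quintile of H4K12ac strength (left) and by step of relative distance from the midpoint of the H3K4me3 domain (right), for each width class; points are means of both BRD2 libraries and bars join the value of each library. The strongest quintile reaches 67.8% in replicate 1 and 88.2% in replicate 2 even at 200 to below 500 bp, and regions of that width go from 33.0% and 62.0% at domain centres to 5.66% and 19.5% at the edges.

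For comparison across marks at one width, the shared regions of other marks were taken by the same rule at 500 to below 1000 bp. BRD2 met 29.1% and 48.1% of the H4K12ac regions of this width, against 21.6% and 29.5% for H4K8ac, 19.1% and 34.2% for H3K4me3, 12.3% and 20.6% for H4K5ac, 8.05% and 14.9% for H4K5acK8ac and 7.03% and 10.9% for H3K27ac. The H4K12ac value was the highest of these 6 marks in both libraries at this width. It was not so at every width: at 200 to below 500 bp H3K4me3 regions had 10.7% and 19.4% against 9.90% and 19.0% for H4K12ac, and over all widths 52.3% and 67.6% against 33.3% and 48.2%. The marks differ in list length and peak width, whose part in this order was not tested.

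Inside shared H4K12ac regions, the median distance from BRD2 to H4K12ac summits was 123 to 139 bp over the 4 library pairs. Only BRD2 summits inside these regions were taken, so the region's width limits the distance. The distance that random placement within a region would give was not computed. From the 18702 BRD2 summits of replicate 1 inside shared H4K12ac regions, the median distance to the nearest H4K12ac summit was 139 bp in H4K12ac replicate 1 and 137 bp in replicate 2. From the 25482 summits of BRD2 replicate 2 it was 130 and 123 bp. Within 100 bp lay 40.8%, 41.3%, 42.3% and 44.1% of BRD2 summits in the same order, and within 200 bp 59.7%, 60.7%, 61.9% and 63.8%. Between replicate libraries, H4K12ac summits of replicate 1 lay a median of 105 bp from those of replicate 2, and 112 bp in the other direction, and BRD2 summits of replicate 1 lay 115 bp from those of replicate 2. From replicate 2 to replicate 1 the BRD2 distance was 260 bp, but 28.2% of those summits had no replicate 1 summit within 1000 bp. The same BRD2 summits lay 186 to 206 bp from the nearest H4K5acK8ac summit, as medians over library pairs, 524 to 593 bp from H3K4me3 and 649 to 708 bp from H3K4me1. These are not comparable with the H4K12ac distances, because the BRD2 summits were taken inside H4K12ac regions, where the other marks need not be present.

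**Figure D5:**
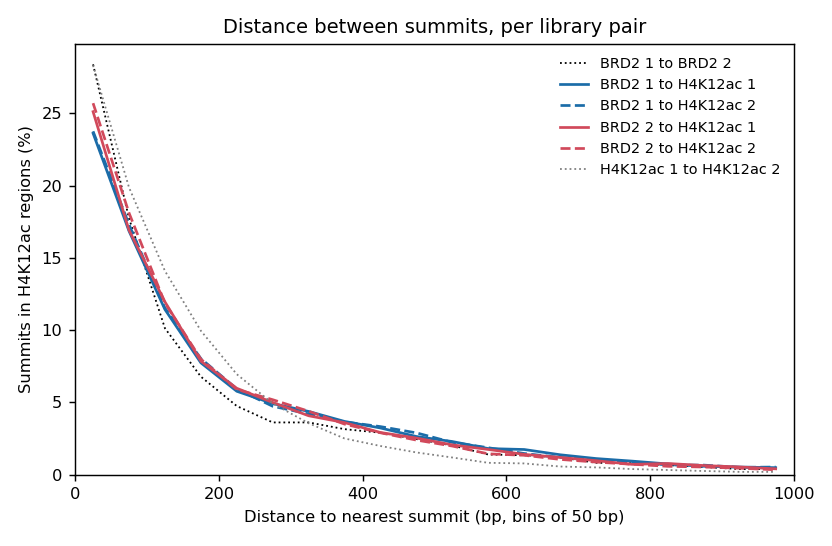
Distances in bp between BRD2 summits and the nearest H4K12ac summit inside shared H4K12ac regions, for each of the 4 library pairs, as the percent of summits per bin of 50 bp; dotted lines give the distances between replicates of 1 target. The 4 curves lie close together, with medians between 123 and 139 bp.

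Summit distance depended on the region. For the pair of replicates 1 the median was 64 bp in regions of 200 to below 500 bp, 94 bp at 500 to below 1000 bp, 153 bp at 1000 to below 2000 bp, 304 bp at 2000 to below 4000 bp and 834 bp in the widest class. In regions with H4K5acK8ac and H3K4me3 but no H3K4me1 it was 81 bp, against 169 bp with all 3 marks and 173 bp in the enhancer-like combination. For the pair of replicates 2 these medians were 76, 143 and 145 bp. A single strongest summit per library was also taken in each of the 13399 regions occupied in both lists. Over all of these, BRD2 and H4K12ac were a median of 111 to 116 bp apart. The BRD2 replicates were 83 bp from each other, and the H4K12ac replicates also 83 bp. BRD2 was not farther from H4K12ac than its replicates were from each other in every group. At 200 to below 500 bp the medians were 60 to 64 bp against 61 bp between BRD2 replicates. In the enhancer-like combination they were 154 to 174 bp against 166 bp. The distance to the nearest H4K12ac summit, averaged over library pairs, was 84.0 bp in regions where each library had 1 summit and 85.75 bp in regions under 1000 bp. When each H4K12ac region was cut into 3 equal parts, the middle part held 43.1% of the BRD2 summits of replicate 1 and 40.9% of those of replicate 2.

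Single regions show the range of these patterns. Coordinates are 1-based in hg19, the build named in the submitters' processing notes, and the genes at these positions were not analysed here. The widest shared H4K12ac region, chr12:34485934-34509991, spanned 24058 bp and held 24 BRD2 peaks in replicate 1 and 16 in replicate 2, with highest fold enrichments of 5.74 and 14.0. It carried H4K5acK8ac, H3K4me3, H3K4me1 and H3K27me3 in both lists. A pair of wide regions lay near each other on chromosome 22: chr22:30630553-30651639, of 21087 bp, with 23 and 18 BRD2 peaks, and chr22:30597659-30609966, of 12308 bp, with 14 and 9. Next in width was chr7:130578920-130591074, of 12155 bp, where the BRD2 libraries differed, with 1 weak peak in replicate 1 and 10 peaks in replicate 2. The last of the 5, chr17:43445971-43456999, of 11029 bp, had 11 and 7 BRD2 peaks with highest folds of 11.0 and 21.3. All 5 of these regions carried the 3 sorting marks in both lists.

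The 5 regions with the highest BRD2 enrichment were between 908 and 2842 bp wide, and none was among the 5 widest. At chr2:3621588-3624429, of 2842 bp, a single BRD2 peak reached a fold of 26.5 in replicate 1 and 56.9 in replicate 2, over an H4K12ac fold of 13.0 and 11.8. The region chr16:70556691-70558724 followed with 24.2 and 43.8, and chr17:80414964-80416482 had 23.5 and 45.8. On chromosome 1 a single BRD2 peak with folds of 23.8 and 54.2 spanned the neighbouring regions chr1:93296543-93297450 and chr1:93297506-93298654 and counted for both. The first of them had H3K4me1 but no H3K4me3 and the second H3K4me3 but no H3K4me1. Because of that peak the first region also led the regions occupied without H3K4me3. The next in that set were chr12:683996-686362, with BRD2 folds of 9.19 and 16.4, and chr11:69233927-69236071, with 8.47 and 16.1. Both were over 2000 bp wide and carried H4K5acK8ac and H3K4me1.

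Regions with a high H4K12ac −log10 q but without BRD2 were also found. No filter for regions of artefact signal was applied here, so such regions may be among them. The region chr1:16840714-16841104, of 391 bp, had an H4K12ac fold of 13.8 and 13.7 and carried H4K5acK8ac and H3K4me3, yet neither BRD2 list had a peak there, and the nearest BRD2 region called in both lists was 8745 bp away. At chr12:120730954-120731683 the H4K12ac fold was 11.1 and 8.15, all 3 sorting marks were present, and BRD2 was 22974 bp away. The regions chr7:1472038-1473076 and chr21:9908726-9910596 had H4K5acK8ac and H3K4me1 without H3K4me3 and H4K12ac folds of 7.04 and 8.09, and of 4.75 and 4.57. At chr1:91852704-91853234 the −log10 q was 24.0 and 35.5. The folds there were only 2.02 and 2.60, below the medians of 3.10 and 3.28 at all regions free of BRD2. The widest regions without BRD2 were chr11:69460036-69465723 with 5688 bp, chr19:50360253-50364925 with 4673 bp and chr9:139733070-139736841 with 3772 bp. All 3 carried H4K5acK8ac, H3K4me1 and H3K36me3 in both lists, and BRD2 lay 1831, 5506 and 3690 bp from them.

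The 9 regions with BRD2 in both lists and no H4K5acK8ac held weak peaks. The highest, chr1:45277515-45278145, had BRD2 folds of 3.61 and 3.83 and H4K12ac folds of 3.98 and 3.73, with H4K8ac, H3K27ac and H3K4me1 in both lists. At chr17:44842899-44843211 the BRD2 folds were 2.95 and 3.39, and at chr7:96707364-96707856 they were 3.57 and 2.75. All 3 were far below the folds of 23.5 or more in the leading regions.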

How the data were processed

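Peak lists of ChIP-seq libraries in NCI-H23 cells were used as the authors deposited them, 1 list per library. BWA, MACS2 and the build hg19 are named in the submitters' processing notes, without versions or settings; the control and the filters are not given in the sources used here. Each list gives, as deposited by the authors, a score per peak (not used), the fold enrichment as a ratio over local background, −log10 p and −log10 q values, and the summit offset in bp from the peak start. The lowest −log10 p of the lists shown was 2.00, so weak peaks were included. The input library and gene annotation were not used here.

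Shared regions were unions of overlapping peaks holding at least 1 peak of each replicate. A region was occupied by BRD2, or carried a mark, when at least 1 bp overlapped. A mark called in both lists was present, in neither absent. For the mark differences in the fixed window, the marks were called within the window as well. Shares are given per BRD2 library with mean ± SD over 2 libraries, and intervals are Wilson intervals at the 95% level. No p-value was computed. Python 3.11.15, numpy 2.4.6, scipy 1.17.1, pandas 2.3.3 and matplotlib 3.10.9 were used, and the functions were tested on simulated peaks with known overlaps. Groups and replicate numbers came from the sample titles. Members, width classes and lists of marks were chosen with earlier results of these data known.

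Regions were named by rule, on autosomes other than chromosome 8: the 5 widest, the 5 with the highest BRD2 fold (lower value of both lists), the 5 strongest in H4K12ac −log10 q without BRD2, the 3 widest without BRD2, and the 3 highest in BRD2 fold without H4K5acK8ac and without H3K4me3. Alternatives were stricter peak thresholds, a summit criterion, bases covered by both replicates, a fixed window, each library left out, pairs of the same replicate number, autosomes only and, added after seeing the data, BRD2 peaks at a q of at most 0.05 and comparisons within width or strength.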

Additional observations from a re-analysis of the deposited data

How the results depend on the processing

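Of 78 values recomputed under other settings, 43 kept their sign and moved by no more than the spread between BRD2 libraries, and 8, all of the H3K4me1 difference, changed sign. Leaving out 1 BRD2 library shifts a mean over 2 libraries by less than their SD by construction. Such values among the 43 were bound to stay within the spread. The wide-minus-narrow, H4K5acK8ac and H3K4me3 differences were positive under each setting tried. The H3K4me1 difference (0.109 percentage points) turned to −2.09 with BRD2 at −log10 q of at least 5, −11.6 with H4K12ac at that threshold, −11.6 over bases covered by both H4K12ac replicates, −23.0 in the fixed window, −0.775 at BRD2 q of at most 0.05, −20.3 within width classes, −17.3 within width and strength, and −1.16 without BRD2 replicate 2; it was 6.36 with stricter mark peaks. For BRD2 peaks past that −log10 q, BRD2 met 18.7% of the regions, and the differences were 61.3 (width), 23.2 (H4K5acK8ac) and 31.1 (H3K4me3) points; with H4K12ac at that threshold they were 79.5%, 39.7, 70.4 and 30.3. The width difference was 81.1 with a BRD2 summit required, 71.4 in the window and 77.7 at q of at most 0.05. Within width classes the H3K4me3 difference was 34.3; within width and strength it was 21.9 and that of H4K5acK8ac 24.1. The summit distance was 97.0 bp at −log10 q of at least 5, 84.0 bp in regions with 1 summit per library and 85.75 bp under 1000 bp. The cause of these moves was not tested.

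Leaving out 1 library gave 19.3% to 48.2% for the share, 78.3 to 89.3 for width, 36.7 to 57.6 for H4K5acK8ac, 42.3 to 54.0 for H3K4me3, −1.16 to 14.6 for H3K4me1 and 126.5 to 138 bp for the summit distance. Without an H4K12ac library all peaks of the other list count as regions, and the share was 20.3% without replicate 1 and 19.3% without replicate 2. Same-numbered libraries did not deviate together (correlation 0.0186 over 25142 bins of 100000 bp). With the replicate block, meaning same-numbered libraries only, the share was 19.9%, and the differences 87.5 (width), 37.5, 46.5 and 14.5 for the marks in the order above; the distance was 131 bp. Unknown depth limits each absence of a peak.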
